A study of Mus musculus with 18 samples.

Results

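The annexin family was taken as 8 genes, Anxa1, Anxa2, Anxa3, Anxa4, Anxa5, Anxa6, Anxa7 and Anxa11. On the array, 18194 genes had a probe set of their own, 7 of these 8 members among them. Members were picked by gene symbol, and 17 probe sets named a member and no other gene. The family was proposed with results of these data in view, and which values were looked at is not recorded, so the calls below describe the members and are no independent evidence. The 7 members with a probe set of their own all passed the filter on dim genes (at least 2 arrays at 100 units or more). The only probe set listed for Anxa11 is also listed for Gm2260 and Gm2274 and names no gene here. The annexins Anxa8, Anxa9, Anxa10 and Anxa13 were on the array as well, and 0 of these 4 passed that filter.

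Annexins are cytosolic proteins that bind acidic phospholipids of membranes when calcium rises, each through a conserved core of repeats and a variable N-terminal tail. The tail sets the partners: Anxa2 joins S100a10, Anxa1 and Anxa11 bind other S100 proteins, and Anxa7 binds sorcin. The family is known for membrane repair, vesicle traffic and, outside the cell, for anti-inflammatory signalling by Anxa1, plasminogen activation by Anxa2 and binding of exposed phosphatidylserine by Anxa5.

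RNA of AB1 cells, a mouse embryonic stem (ES) cell line, was hybridised to Affymetrix arrays, 1 sample each. Knockout (KO) cells were Cyp26a1-/-, without an intact copy of the gene for an enzyme that degrades retinoic acid (RA), and wild-type (WT) cells were the AB1 line itself. KO cells were sampled as controls at 8 h (3 arrays), after RA at 100 nM for 8 h (3 arrays) or for 72 h (2 arrays), and as a control without leukemia inhibitory factor (LIF) at 8 h (1 array), and WT cells were sampled in the same groups and numbers. The other groups were labelled as receiving LIF, which holds ES cells in the undifferentiated state. No 72 h control is labelled, so 72 h of RA and 72 h of culture cannot be told apart. The sources used here do not say whether the KO line is 1 clone or whether repeats were separate cultures, so the spread behind each p-value is that of these samples and may be technical. Values are MAS5 signal in arbitrary units, and levels of different probe sets are not compared with each other.

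All 18 arrays were rescaled to a trimmed mean of 500 units, and then had a median of 54.4 to 75.6 units and between 39.9% and 45.3% of probe sets at 100 units or more. Pou5f1, the defining ES cell factor, lay between 10090 and 17750 units on all arrays. Cyp26a1 itself read 9.81 to 52.6 units in KO controls, 193 to 216 units after 8 h of RA and 2873 to 3075 units after 72 h. WT arrays gave 17.5 to 84.2, 637 to 1695 and 3211 to 3402 units in the same order. Its probe set cannot be placed relative to the disrupted part, so it does not check the genotype. The LIF target Socs3 read 4551 units in KO and 3800 units in WT on the arrays labelled without LIF, against 215 units in KO and 368 units in WT on the control arrays of replicate 1, labelled with LIF. All other arrays read 2628 to 6001 units. Socs3 thus goes against the LIF label on these 4 arrays, and which of them received LIF cannot be told from the labels. For Anxa1, Anxa2, Anxa3 and Anxa5, the WT differences between 72 h and control are also given without the control arrays of replicate 1. The WT array of replicate 2 after 72 h of RA stood apart in fibroblast markers, with 7 of 12 at 100 units or more, against 1 or 2 of 12 on each other array. The 72 h differences of Anxa1, Anxa2, Anxa3 and Anxa5 from WT control and between genotypes are also given without it. Differences of genes outside the family are given only with all these arrays, and how far their calls rest on single arrays is not shown.

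Promoter windows in RefSeq (assembly GRCm38.p6), of 250 bases before to 50 bases after the gene start, are shown for Anxa1, Anxa2 and Anxa5. These are the 3 members with a window whose group means span at least 1 on the log2 scale. All 3 had their highest group mean in WT cells after 72 h of RA, as did Anxa3, Anxa4 and Anxa6. A window was listed for 6 of the 8 members, and Anxa3 was not among them. Capitals mark matches on either strand to the letters of the TATA box (TATAAA), of the GC box (GGGCGG) and of the AP-1 site (TGANTCA). The Anxa1 window is chr19:20390622-20390921 (minus strand), the Anxa2 window chr9:69453433-69453732 (plus strand) and the Anxa5 window chr3:36475838-36476137 (minus strand).
Anxa1: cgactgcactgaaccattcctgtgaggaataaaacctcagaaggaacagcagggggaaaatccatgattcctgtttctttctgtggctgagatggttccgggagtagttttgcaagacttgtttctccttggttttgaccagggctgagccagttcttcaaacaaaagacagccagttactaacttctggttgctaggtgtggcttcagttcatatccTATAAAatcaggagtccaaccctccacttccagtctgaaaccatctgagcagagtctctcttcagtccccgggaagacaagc
Anxa2: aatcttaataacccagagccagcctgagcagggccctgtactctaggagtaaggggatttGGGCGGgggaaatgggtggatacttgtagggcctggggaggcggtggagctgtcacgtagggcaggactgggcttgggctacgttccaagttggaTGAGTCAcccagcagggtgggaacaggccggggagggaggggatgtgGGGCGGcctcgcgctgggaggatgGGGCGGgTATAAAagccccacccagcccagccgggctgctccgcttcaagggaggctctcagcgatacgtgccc
Anxa5: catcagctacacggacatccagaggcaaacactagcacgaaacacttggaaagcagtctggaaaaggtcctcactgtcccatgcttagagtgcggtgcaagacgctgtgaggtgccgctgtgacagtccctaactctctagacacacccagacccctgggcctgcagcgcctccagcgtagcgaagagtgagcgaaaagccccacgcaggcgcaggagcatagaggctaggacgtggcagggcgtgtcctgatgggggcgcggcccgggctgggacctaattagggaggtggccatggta
Anxa1 held the TATA box letters at position -32 and Anxa2 held it at -17, relative to the gene start. Anxa2 also held 1 AP-1 match at -95 and 3 GC box matches, none overlapping another motif, and the Anxa5 window matched none of the letters searched. Of 32851 RefSeq promoter windows of this length, 13.6% held the TATA box letters, 35.7% those of the GC box and 7.81% those of the AP-1 site. The nuclear receptor motif AGGTCA, which 16.3% of windows held, was in none of the 8 windows of the members. These are matches of letters, not sites of binding.

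After 72 h of RA, Anxa3 and Anxa5 rose in both genotypes and Anxa1 rose in WT cells, where it stood 18.6-fold above the control. Anxa3 was lower in KO than in WT cells in every condition, by 12.5-fold after 72 h. Anxa4, Anxa6 and Anxa7 passed the threshold in none of the 11 comparisons, and no member passed it for 8 h of RA against control. Counts are of genes with an adjusted p under 0.05 from limma over 11388 genes. After 8 h, 0 of 7 members were called in KO cells, where 0.957% of all genes were, and 0 of 7 in WT cells, where 0.904% were. At an unadjusted p under 0.05 the count was also 0 of 7 in each, against 986 of 11388 genes in KO and 895 of 11388 in WT cells, and the smallest adjusted p of a member was 0.722 in KO and 0.73 in WT cells. After 72 h against control, 2 of 7 members were higher in KO cells (background 14.8% of genes higher, 23% called in either direction) and 3 of 7 in WT cells (16.1% higher, 24.7% in either direction). The median log2 difference over the members was 0.09 in KO and 0.94 in WT cells, and over all genes it was 0.06 in both.

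**Figure D1:**
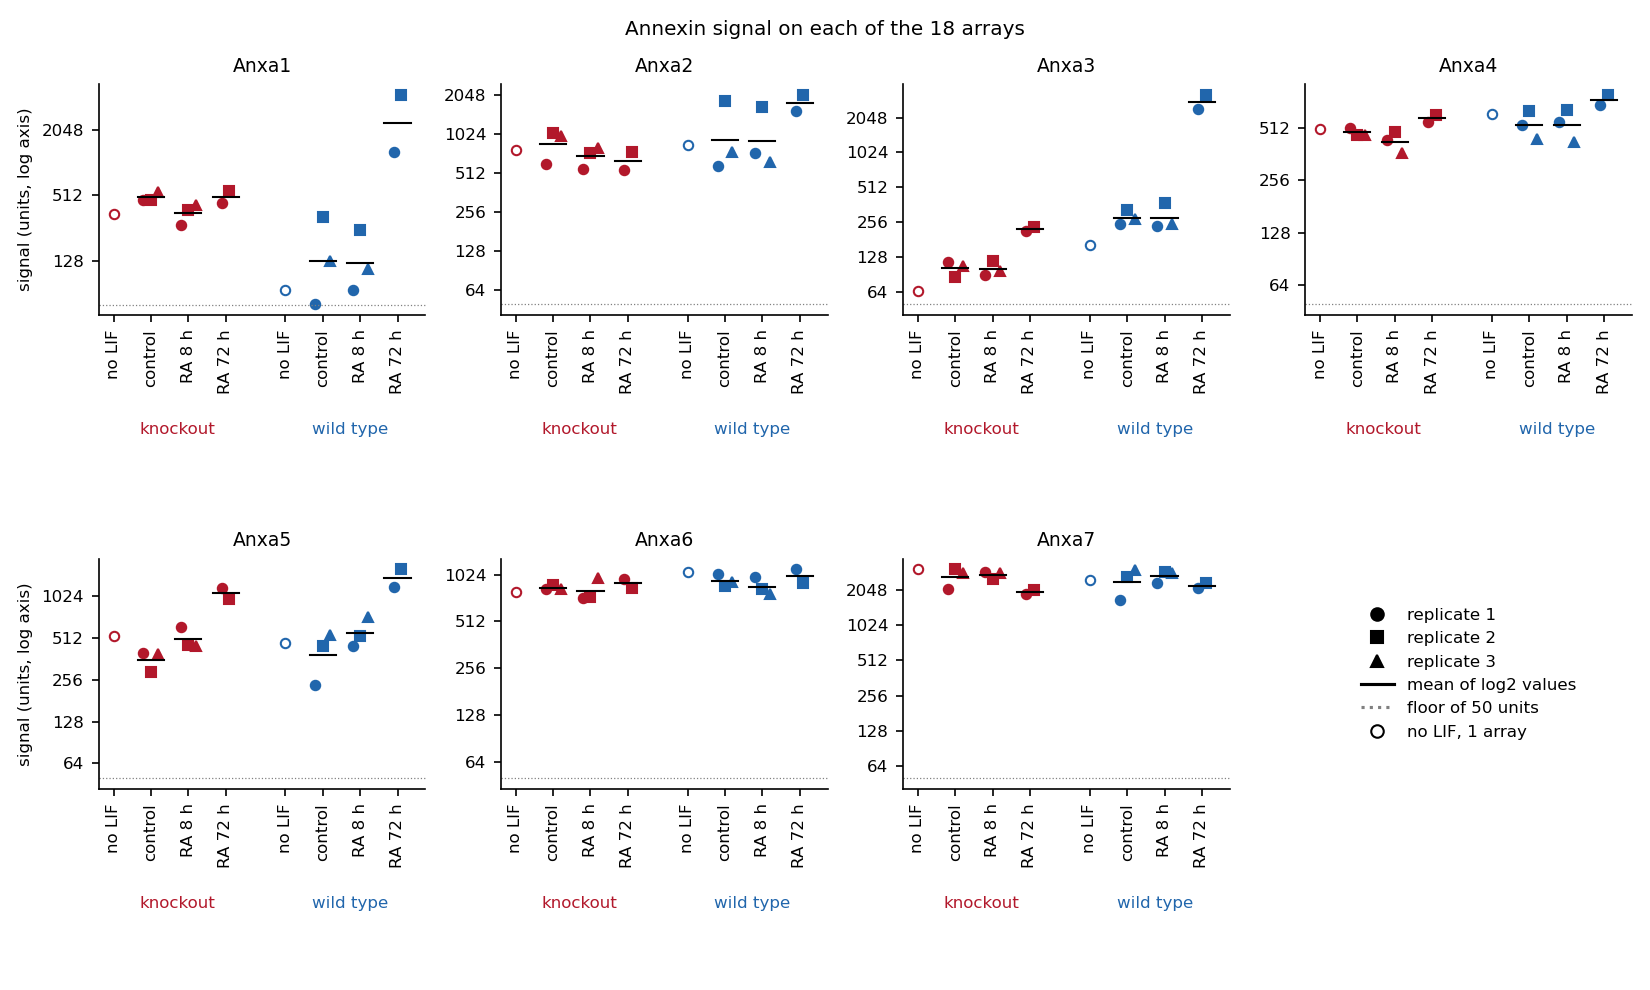
Signal of each tested annexin on all 18 arrays (log axis, arbitrary units) by genotype and group, with KO groups left of WT groups. Symbols are replicates, open circles the 2 arrays without LIF, lines the mean of the log2 values and the dotted line the floor of 50 units. Anxa3 after 72 h of RA lies at 214 and 231 units in KO and at 2411 and 3214 units in WT cells, and Anxa6 lies between 726 and 1111 units throughout.

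Anxa1, a glucocorticoid-regulated annexin that signals through formyl peptide receptors when secreted, ranged much less in KO than in WT cells. In control cells it read 464, 463 and 550 units in KO (replicates 1 to 3), against 50.7, 321 and 127 units in WT. After 8 h of RA it read 273, 376 and 416 units in KO, against 69.0, 245 and 107 units in WT. After 72 h it read 437 and 561 units in KO, against 1297 and 4345 units in WT. KO values thus lay above all WT values in control cells and after 8 h and below both WT values after 72 h, with no overlap in any condition. Within KO cells the 8 h arrays lay below all controls and the 72 h arrays above all 8 h arrays, though neither difference passed the threshold. Within WT cells, replicate 2 was the highest array in each condition.

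In WT cells Anxa1 rose after 72 h of RA by 4.22 ± 0.64 on the log2 scale against control (± is the standard error from limma; adjusted p = 0.000222) and by 4.28 ± 0.64 against 8 h (adjusted p = 0.000233). In KO cells the differences were 0.01 ± 0.64 (adjusted p = 0.994) and 0.50 ± 0.64 (adjusted p = 0.645). Of all genes, 22.3% were called between 72 h and 8 h in WT cells and 19.2% in KO cells. Without the WT array of replicate 2 after 72 h the rise was 3.35 against control (adjusted p = 0.00889) and 3.41 against 8 h (adjusted p = 0.00976). Without both control arrays of replicate 1 the rise against control was 3.55 (adjusted p = 0.000995). Averaged with a dimmer Anxa1 probe set that lay at the floor on all arrays, the rise was 2.11.

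Between genotypes Anxa1 missed the threshold in each condition: the KO minus WT difference was 1.94 ± 0.57 in control cells (adjusted p = 0.0707), 1.52 ± 0.57 after 8 h of RA (adjusted p = 0.171) and -2.26 ± 0.70 after 72 h (adjusted p = 0.0912). At the same replicate number (1 to 3), KO minus WT was 3.2, 0.5 and 2.1 in control cells and 2.0, 0.6 and 2.0 after 8 h. After 72 h it was -1.6 and -3.0, so the pairs differed widely. Over all genes same-numbered arrays deviated together. Once the replicate number was fitted as a block, the limma adjusted p for Anxa1 was 0.00528, 0.0217 and 0.00771, past the threshold each time. The high WT replicate 2 had no counterpart in KO controls, so these block p-values may be too small. The block fit called 9.39%, 9.78% and 8.82% of all genes in the same order. The difference in the 72 h response, KO minus WT, was -4.21 ± 0.91 (adjusted p = 0.0707, and 0.00788 with the block, which called 0.492% of all genes). Without the WT array of replicate 2 after 72 h these last differences were -1.39 (adjusted p = 0.612) and -3.33 (adjusted p = 0.71). Without both control arrays of replicate 1 the control difference was 1.32 (adjusted p = 0.387) and the difference in the 72 h response -3.58 (adjusted p = 0.22). Anxa1 lies on chromosome 19, as Cyp26a1 does. The 414 genes tested there had a median KO minus WT difference of 0.47 in controls, 0.48 after 8 h and 0.48 after 72 h. Over all genes the median was -0.002, -0.009 and -0.009 in the same order. Of the chromosome 19 genes, 0 had a larger difference than Anxa1 in control cells and after 8 h, while 412 lay above it after 72 h.

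Anxa3, an annexin of neutrophil granules that has been described as an inhibitor of phospholipase A2, had the largest range of group means in the family, 4.78 on the log2 scale. In control cells it read 116, 86.2 and 108 units in KO, against 247, 323 and 270 units in WT. After 8 h of RA it read 90.1, 119 and 97.3 units in KO, against 238, 375 and 246 units in WT. After 72 h it read 214 and 231 units in KO, against 2411 and 3214 units in WT. Every KO array lay below every WT array labelled with LIF, and the KO arrays at 72 h lay just under the WT controls. From high to low, the group means ran WT 72 h, WT 8 h, WT control, KO 72 h, KO control and KO 8 h. WT 8 h and WT control overlapped, as did KO control and KO 8 h.

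In KO cells Anxa3 rose after 72 h of RA by 1.12 ± 0.24 against control (limma adjusted p = 0.0032) and by 1.13 ± 0.24 against 8 h (adjusted p = 0.00377). In WT cells it rose by 3.32 ± 0.24 (adjusted p = 2.09e-07) and by 3.31 ± 0.24 (adjusted p = 5.39e-07). The KO response was smaller than the WT response by 2.20 ± 0.33 on the log2 scale (-2.20, adjusted p = 0.012), in a comparison where 0.342% of all genes were called and 0.316% were lower. That call of the difference in response was lost without both control arrays of replicate 1 (-2.03, adjusted p = 0.0778) and without the WT array of replicate 2 after 72 h (-2.00, adjusted p = 0.257). It was also lost without either KO array at 72 h, replicate 1 (-2.15, adjusted p = 0.0575) or replicate 2 (-2.26, adjusted p = 0.0631). Without both control arrays of replicate 1, Anxa3 rose against control by 1.21 in KO (adjusted p = 0.00557) and by 3.24 in WT cells (adjusted p = 3.65e-06). Without the WT array of replicate 2 after 72 h the WT rise was 3.11 (adjusted p = 1.73e-05). The same 72 h arrays enter the differences from control and from 8 h, so these are not independent of each other.

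Anxa3 was lower in KO than in WT cells by 1.44 ± 0.21 on the log2 scale in control cells (-1.44, limma adjusted p = 0.00172), -1.46 ± 0.21 after 8 h of RA (adjusted p = 0.0013) and -3.65 ± 0.26 after 72 h (adjusted p = 2e-06). In the fit without the block it was the only member called between genotypes, 1 of 7 in each condition. Of all genes, 4.64%, 4.61% and 4.07% were called in control cells, after 8 h and after 72 h, and 2.81%, 2.91% and 2.68% were lower. With the block, Anxa1 was called as well in each condition, and Anxa2 after 72 h (limma adjusted p = 0.0097). Without the WT array of replicate 2 after 72 h the Anxa3 difference at 72 h was -3.44. Without both control arrays of replicate 1 the Anxa3 control difference was -1.62 (adjusted p = 0.0143). No gene was called for a difference in the 8 h response (0% of all genes), where the Anxa3 value was -0.02 ± 0.30 (adjusted p = 1). At an unadjusted p under 0.05, limma gave 211 of 11388 genes and 0 of 7 members there.

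**Figure D2:**
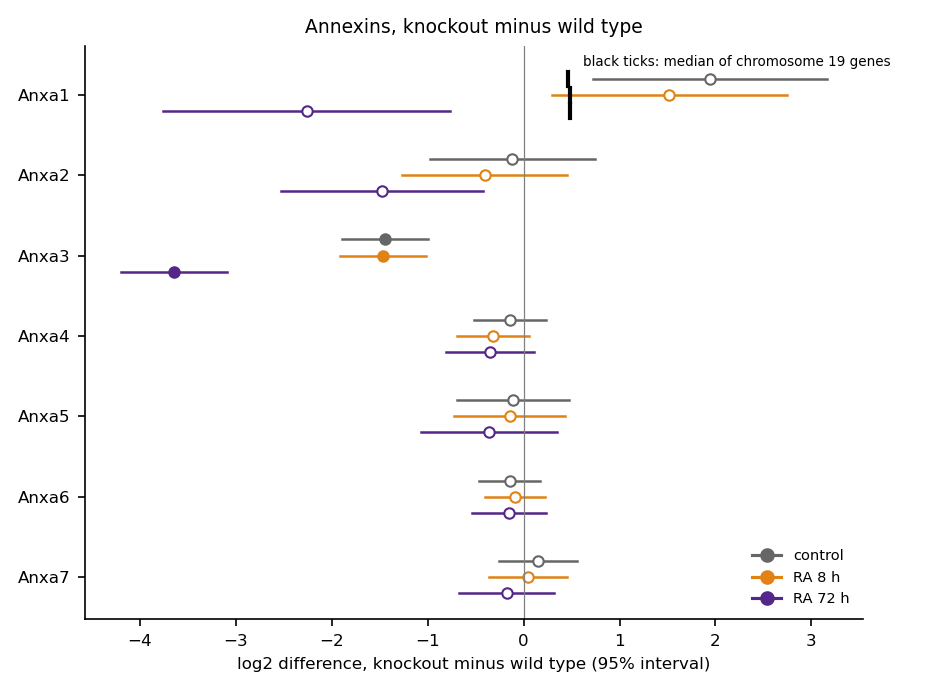
KO minus WT log2 difference of each tested annexin in control cells, after 8 h and after 72 h of RA, with 95% intervals from limma (filled points: adjusted p under 0.05). Anxa3 is filled at -1.44, -1.46 and -3.65, Anxa1 lies at 1.94, 1.52 and -2.26, and black ticks show the chromosome 19 medians of 0.47, 0.48 and 0.48.

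Lists of markers of other cell types are given beside these results. Summed over 16 extraembryonic endoderm markers, the signal was 5229 to 9263 units in KO controls, 6818 to 9728 units after 8 h of RA and 30040 to 30890 units after 72 h. The WT sums were 7519 to 15620, 8701 to 17590 and 36950 to 41010 units in the same order. Of 14 tested endoderm markers, 12 were higher at 72 h than in control in KO (14.8% of all genes) and 13 in WT cells (16.1%). Lower in KO than in WT cells were 5 in controls (2.81% of all genes) and 4 after 8 h (2.91%). After 72 h 0 were called between genotypes (2 at an unadjusted p under 0.05 from limma), against 4.07% of all genes. Gata6, a transcription factor of primitive endoderm, rose by 4.84 ± 0.37 in KO (limma adjusted p = 4.13e-07) and by 2.21 ± 0.37 in WT cells (adjusted p = 0.000515), and was lower in KO controls than in WT controls by 2.13 on the log2 scale (-2.13 ± 0.33, adjusted p = 0.00236).

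Fibroblast markers, a list of 12, summed to 490 and 498 units in KO cells after 72 h of RA, against 2360 and 5734 units in WT. Of these 12 genes 2 passed the filter on dim genes, the smooth-muscle actin gene Acta2 and the surface antigen gene Thy1. Acta2 made up most of the WT sums, at 1859 units in replicate 1 and 3757 units in replicate 2, and rose against control in WT cells (3.79 ± 0.46, limma adjusted p = 3.09e-05), with a KO difference of -0.02 ± 0.46 (adjusted p = 0.986). Thy1 fell in KO (-2.02 ± 0.39, adjusted p = 0.00174) and in WT cells (-2.51 ± 0.39, adjusted p = 0.000273). Collagen genes and decorin read at 210 units or more in WT replicate 2 (Col1a1 302, Col1a2 432, Col3a1 253, Col5a2 450, Dcn 210 units) and under 100 units in WT replicate 1 (76.8, 91.3, 56.6, 49.9 and 24.2 units in the same order). Before 72 h of RA the fibroblast sums lay between 613 and 1063 units on all arrays. Trophoblast markers, a list of 8, summed to 741 and 767 units in KO after 72 h, against 1660 and 1662 units in WT. Of 6 tested trophoblast markers, 2 were lower in KO than in WT cells then and 0 higher, where 2.68% of all genes were lower. They were Krt7 (-1.68 ± 0.27, limma adjusted p = 0.00209) and Gata3 (at least 2.74-fold lower, with KO at the floor, adjusted p = 0.00217). Neural markers, a list of 7, summed to 1354 and 1594 units in KO after 72 h, against 1360 and 1421 units in WT, and the sums of 10 ES cell markers were 86770 and 94940 units in KO, against 66690 and 71450 units in WT. The part of these cell types in the annexin values was not tested, and in such bulk samples fewer cells of a type and less RNA per cell cannot be told apart.

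**Figure D3:**
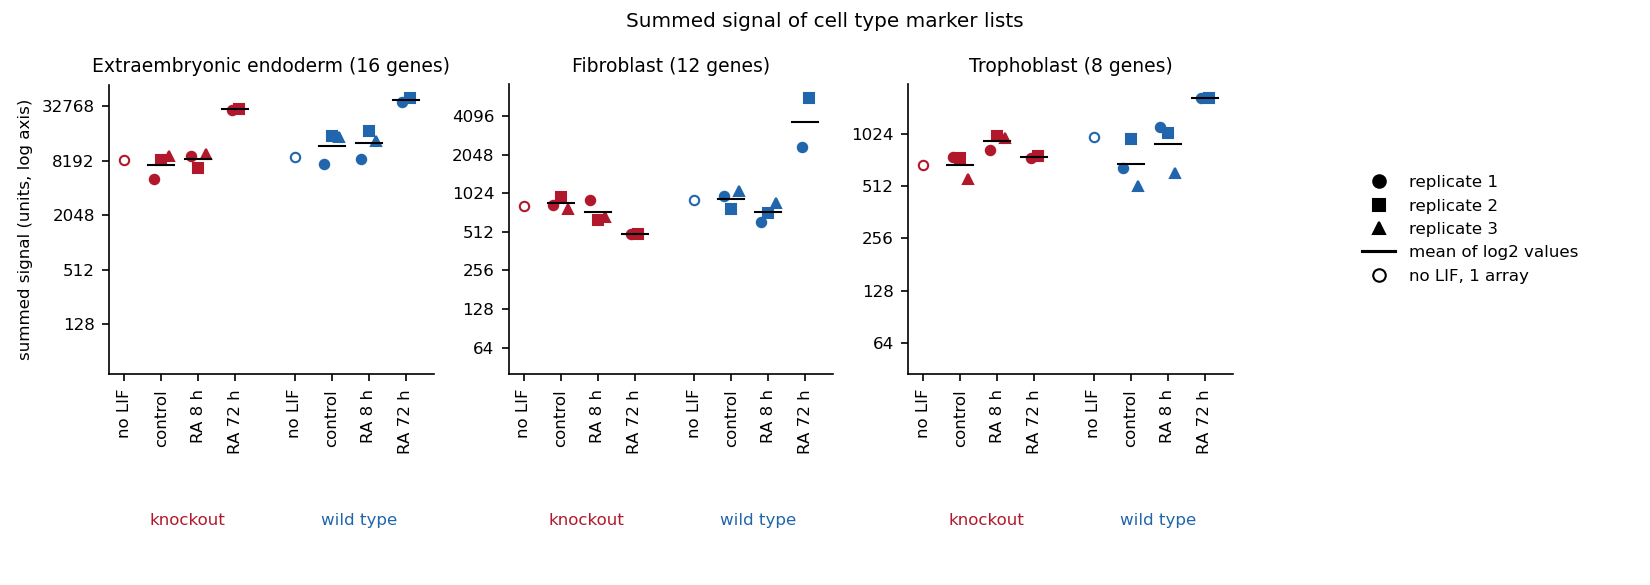
Summed signal (log axis, arbitrary units) of the extraembryonic endoderm, fibroblast and trophoblast marker lists on all 18 arrays, KO left of WT, with replicates as symbols and lines for the mean of log2 values. Endoderm sums after 72 h of RA lie between 30040 and 30890 units in KO and between 36950 and 41010 units in WT cells, while fibroblast sums are 490 and 498 units in KO and 2360 and 5734 units in WT cells.

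Anxa5, which binds phosphatidylserine exposed on dying cells and on platelets, rose after 72 h of RA in KO and WT cells alike in direction. In KO cells it read 402, 293 and 391 units in controls, 615, 456 and 447 units after 8 h of RA, and 1181 and 980 units after 72 h. WT cells read 236, 452 and 544 units in controls, 447, 528 and 721 units after 8 h, and 1186 and 1608 units after 72 h. The 72 h arrays of both genotypes lay above all earlier arrays, and KO and WT overlapped in controls and after 8 h. Against control, the rise was 1.59 ± 0.31 in KO (limma adjusted p = 0.00164) and 1.84 ± 0.31 in WT cells (adjusted p = 0.000474). After 8 h the difference from control was 0.48 ± 0.27 in KO (adjusted p = 0.722) and 0.52 ± 0.27 in WT cells (adjusted p = 0.73).

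Between 72 h and 8 h, Anxa5 rose by 1.10 ± 0.31 in KO (limma adjusted p = 0.0197) and by 1.32 ± 0.31 in WT cells (adjusted p = 0.00611). Counting members higher in that comparison gave 2 of 7 in KO (12.7% of all genes higher) and 3 of 7 in WT cells (14.1%). The KO call was lost without KO 72 h replicate 1 (0.97, adjusted p = 0.151) or replicate 2 (1.24, adjusted p = 0.0699), and without KO 8 h replicate 2 (1.04, adjusted p = 0.0521) or replicate 3 (1.02, adjusted p = 0.0606). It was also lost with no filter on dim genes (adjusted p = 0.0659), and the WT call was lost without WT 72 h replicate 2 (1.10, adjusted p = 0.0889). Against control, the WT rise without that array was 1.62 (adjusted p = 0.0137), and without both control arrays of replicate 1 the rises were 1.67 in KO (adjusted p = 0.00055) and 1.48 in WT cells (adjusted p = 0.00124). Between genotypes the Anxa5 difference after 72 h was -0.36 (95% interval -1.07 to 0.35, adjusted p = 0.694), or -0.14 without WT 72 h replicate 2 (adjusted p = 0.972), and the 72 h responses differed by -0.25 ± 0.43 (adjusted p = 1).

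**Figure D4:**
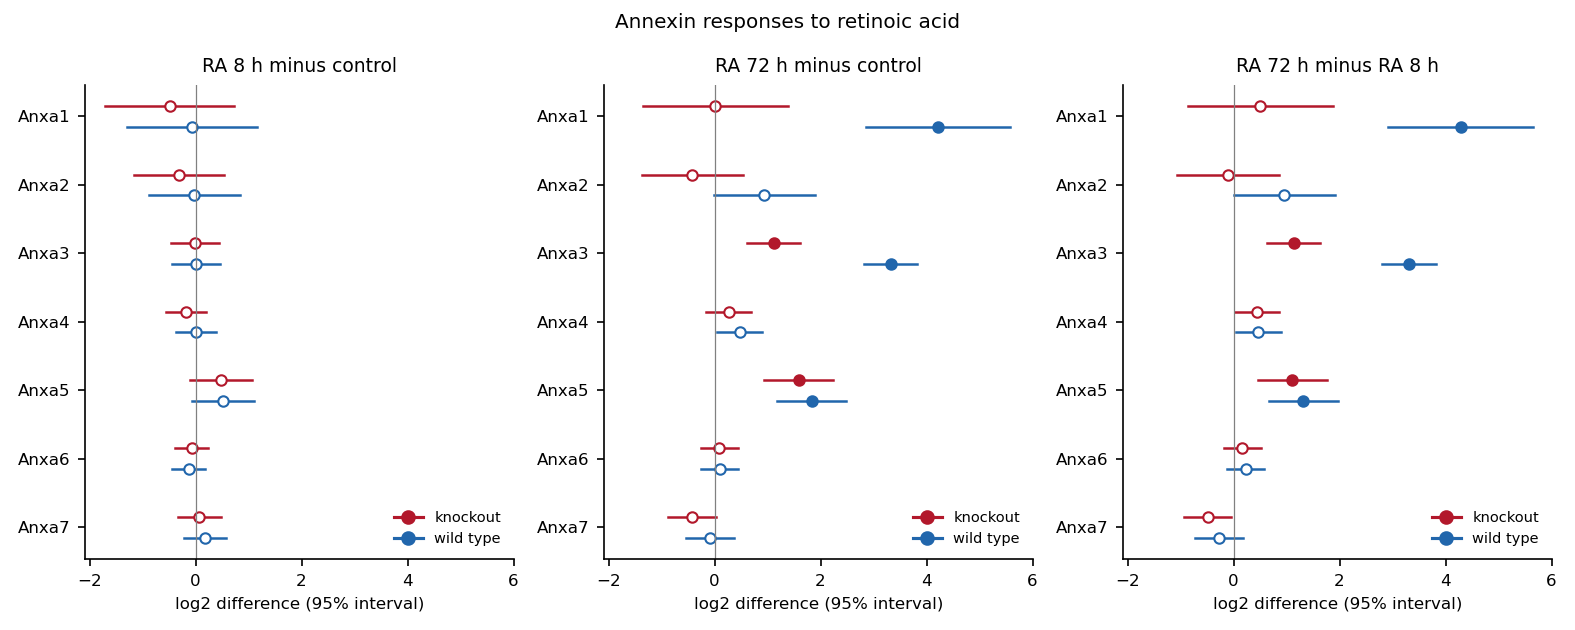
Log2 differences of each tested annexin for 8 h of RA minus control, 72 h minus control and 72 h minus 8 h, KO above WT, with 95% intervals from limma (filled points: adjusted p under 0.05). No point is filled at 8 h, and at 72 h Anxa3 and Anxa5 are filled in both genotypes and Anxa1 at 4.22 and 4.28 in WT cells.

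Anxa2 is the annexin that pairs with S100a10 at the cell surface, where the complex binds tissue plasminogen activator and plasminogen. In control cells it read 599, 1045 and 997 units in KO, against 580, 1843 and 745 units in WT. After 8 h of RA it read 552, 738 and 801 units in KO, against 736, 1669 and 619 units in WT. After 72 h it read 544 and 750 units in KO, against 1537 and 2053 units in WT. KO and WT overlapped in controls and after 8 h and did not after 72 h, and replicate 2 was the highest WT array of each condition, as for Anxa1.

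The 72 h difference from control was -0.42 ± 0.45 in KO (limma adjusted p = 0.559) and 0.94 ± 0.45 in WT cells (adjusted p = 0.145), and neither passed the threshold. KO minus WT after 72 h was -1.48 ± 0.49 (adjusted p = 0.12). With the replicate block, the WT difference was 0.88 (adjusted p = 0.0336), WT 72 h minus 8 h was 0.91 (adjusted p = 0.0324, against 0.96 and adjusted p = 0.144 without it) and KO minus WT after 72 h was -1.48 (adjusted p = 0.0097), all past the threshold. The block fit called 34.6% of all genes for WT 72 h minus control and 31.3% for WT 72 h minus 8 h. At the same replicate number, WT 72 h minus control was 1.4 in replicate 1 and 0.2 in replicate 2, so these pairs differed. KO minus WT after 72 h was -1.5 in replicate 1 and -1.5 in replicate 2. Without both control arrays of replicate 1, the WT difference from control was 0.60 (adjusted p = 0.369), and without WT 72 h replicate 2 it was 0.73 (adjusted p = 0.461), both in the fit without the block. Averaging in the dimmer Anxa2 probe sets brought KO minus WT after 72 h to -0.62. Without the WT array of replicate 2 after 72 h it was -1.27 (adjusted p = 0.517).

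S100a10, the partner of Anxa2, fell at 72 h in both genotypes. After 72 h of RA it read 1899 and 1898 units in KO cells, against 4686, 4890 and 5514 units in KO controls. In WT cells it read 2912 and 3384 units after 72 h, against 4356, 6147 and 4973 units in WT controls. The 72 h arrays lay below all controls in each genotype, and the KO arrays lay below the WT arrays. The difference from control was -1.40 ± 0.17 in KO (limma adjusted p = 4.24e-05) and -0.70 ± 0.17 in WT cells (adjusted p = 0.00822). After 72 h S100a10 was lower in KO than in WT cells (-0.73 ± 0.19, adjusted p = 0.0442), while the difference between the responses was -0.70 ± 0.25 (adjusted p = 0.546).

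Plat, the tissue plasminogen activator that the Anxa2 complex binds, rose at 72 h in both genotypes. It read 307 and 292 units in KO cells after 72 h, against 918 and 882 units in WT. Controls read 55.8, 73.6 and 70.1 units in KO, against 54.9, 103 and 73.6 units in WT. The rise over control was 2.18 ± 0.37 in KO (limma adjusted p = 0.000545) and 3.59 ± 0.37 in WT cells (adjusted p = 5.51e-06), and Plat was lower in KO than in WT cells after 72 h (-1.59 ± 0.40, adjusted p = 0.0362). Plaur, the urokinase receptor, fell in KO cells (-1.30 ± 0.37, adjusted p = 0.0184). Of the list of 8 genes for annexin A1 receptors, phospholipases A2 and plasminogen activation, 7 were on the array and 3 were tested. At 72 h against control 1 was higher and 1 lower in KO and 1 higher in WT cells. Over all genes, 14.8% were higher in KO and 16.1% in WT cells, with 23% and 24.7% called in either direction. The 72 h response differed between genotypes by a limma call in 0 of these 3 (1 at an unadjusted p under 0.05), against 0.342% of all genes. The formyl peptide receptor gene Fpr2 and the plasminogen gene Plg lay below 100 units in every group.

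S100 proteins are small calcium sensors, several of which bind annexin tails. Of a list of 14, 13 were on the array and 6 were tested. At 72 h against control 2 were higher and 2 lower in KO, and 4 higher and 1 lower in WT cells. Over all genes, 14.8% were higher in KO and 16.1% in WT cells, with 23% and 24.7% called in either direction. The median difference of the 6 was 0.44 in KO and 1.27 in WT cells, against 0.06 over all genes in both. S100a16 rose by 1.64 ± 0.24 in KO (limma adjusted p = 0.000172) and by 1.05 ± 0.24 in WT cells (adjusted p = 0.0047). S100a13 rose in WT cells by 1.64 ± 0.38 (adjusted p = 0.00569), with a KO difference of 1.07 ± 0.38 (adjusted p = 0.0579). S100a1 rose at least 1.85-fold in KO cells, whose controls lay at the floor (adjusted p = 0.0254), and by 1.57 ± 0.27 on the log2 scale in WT cells (adjusted p = 0.000547).

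S100g, the vitamin D-dependent calcium-binding protein calbindin-D9k, was at the floor on all KO arrays and read 104 and 189 units in WT cells after 72 h. It was at least 2.80-fold lower in KO than in WT cells then (limma adjusted p = 0.00663). S100a6, a partner of Anxa11, read 143 and 204 units in KO cells after 72 h, against 748 and 1020 units in WT. Its controls ranged widely, at 472, 1200 and 1652 units in KO, against 522, 3210 and 1619 units in WT. S100a6 fell in KO cells (-2.52 ± 0.59, adjusted p = 0.00627), and its differences were -0.68 ± 0.59 in WT cells (adjusted p = 0.448) and -2.36 ± 0.65 between KO and WT after 72 h (adjusted p = 0.0557). At 72 h, 2 of 6 S100 genes were lower in KO than in WT cells, against 2.68% of all genes. In controls 0 of 6 were called by limma between genotypes (4.64% of all genes), with 1 at an unadjusted p under 0.05. After 8 h 0 of 6 were called (4.61% of all genes), and 0 at the unadjusted threshold.

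**Figure D5:**
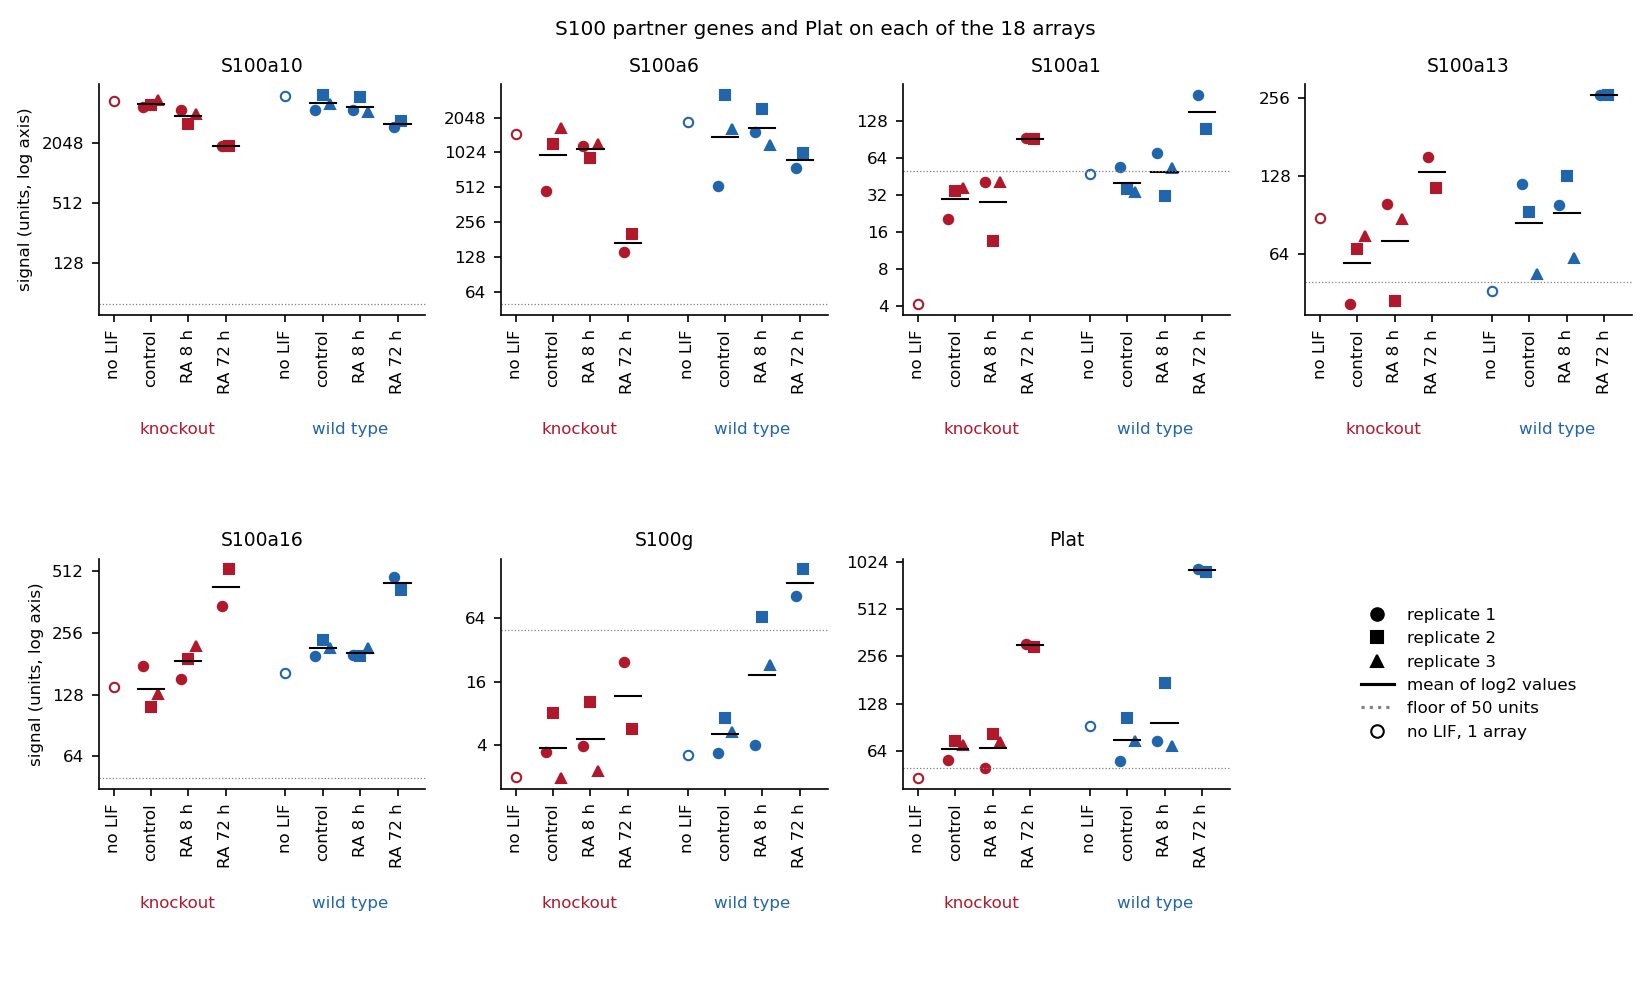
Signal of the 6 tested S100 genes and Plat on all 18 arrays (log axis, arbitrary units), KO groups left of WT groups, with replicates as symbols, lines for the mean of log2 values and the dotted line at the floor of 50 units. S100a10 lies at 1899 and 1898 units in KO and at 2912 and 3384 units in WT cells after 72 h of RA, and Plat at 307 and 292 units in KO and at 918 and 882 units in WT.

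Anxa7, also called synexin, was found as a fuser of secretory granules and binds sorcin. In KO cells it read 2081, 3090 and 2893 units in controls, 2911, 2572 and 2880 units after 8 h of RA, and 1908 and 2055 units after 72 h. WT cells read 1679, 2658 and 3034 units in controls, 2347, 2928 and 2860 units after 8 h, and 2115 and 2358 units after 72 h. KO and WT overlapped in controls and after 8 h, and the KO arrays at 72 h lay below all earlier KO arrays. The KO difference at 72 h was -0.42 ± 0.21 against control (limma adjusted p = 0.176) and -0.49 ± 0.21 against 8 h (adjusted p = 0.127). Without both control arrays of replicate 1 these passed the threshold, at -0.59 (adjusted p = 0.00835) and -0.49 (adjusted p = 0.0151).

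Sri, the gene of sorcin, rose at 72 h by 0.93 ± 0.17 in KO (limma adjusted p = 0.00102) and by 1.12 ± 0.17 in WT cells (adjusted p = 0.000194). It read 1139 and 1401 units in KO after 72 h, against 1747 and 1682 units in WT, and controls lay between 611 and 709 units in KO, against 657 to 885 units in WT. Of 15 listed annexin partners and genes of membrane repair or of the ESCRT machinery, 14 were on the array and 12 were tested. At 72 h against control 5 were higher and 2 lower in KO, and 4 higher and 1 lower in WT cells, with a median of 0.16 in KO and 0.39 in WT cells, against 0.06 over all genes in both. Over all genes, 14.8% were higher and 8.26% lower in KO, and 16.1% higher and 8.64% lower in WT cells. Those higher included Capns1, the small calpain subunit (0.87 ± 0.15 in KO, adjusted p = 0.00066; 0.85 ± 0.15 in WT, adjusted p = 0.000732), and Pdcd6ip, an ESCRT partner also called ALIX (0.68 ± 0.14 in KO, adjusted p = 0.00263; 0.49 ± 0.14 in WT, adjusted p = 0.0187). Chmp4b, an ESCRT-III subunit, rose in WT cells by 0.42 ± 0.12 (adjusted p = 0.0174).

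Capns1 was also the list's only gene called after 8 h, in KO cells (0.61 ± 0.13, limma adjusted p = 0.0404), with a WT difference of 0.56 ± 0.13 (adjusted p = 0.0715). Of all genes, 0.957% were called after 8 h in KO cells. Capn2, the catalytic subunit of m-calpain, fell at 72 h in KO cells (-0.80 ± 0.15, adjusted p = 0.00164). It was lower in KO than in WT cells after 8 h (-0.57 ± 0.14, adjusted p = 0.0276) and after 72 h (-1.02 ± 0.17, adjusted p = 0.00276). No other gene of the 12 was called between genotypes in either condition, where 4.61% and 4.07% of all genes were. The Capn2 control difference was -0.42 ± 0.14 (adjusted p = 0.117). The 72 h response differed between genotypes by a limma call in 0 of the 12, Capn2 and Chmp4b among them (1 at an unadjusted p under 0.05). Of all genes, 0.342% were called there.

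Anxa4, an annexin of epithelial apical membranes, read 464 to 510 units in KO controls, 366 to 484 units after 8 h of RA and 549 and 607 units after 72 h. WT cells gave 440 to 636, 425 to 643 and 688 and 787 units in the same order. The 72 h arrays lay above all controls in each genotype, and the differences from control were 0.27 ± 0.20 in KO (limma adjusted p = 0.376) and 0.47 ± 0.20 in WT cells (adjusted p = 0.0954). Averaged over the probe sets of Anxa4, the WT difference was 0.49 and passed the threshold (adjusted p = 0.0232). Anxa6, the annexin with a duplicated core that acts at late endosomes, read 827 to 877 units in KO controls, 726 to 975 units after 8 h and 839 and 965 units after 72 h. In WT cells it read 871 to 1026, 763 to 988 and 903 and 1111 units in the same order. On this probe set any 2 groups set against each other here overlapped. A dimmer Anxa6 probe set read 378 to 612 units in WT controls and 669 to 731 units after 72 h, without overlap. In KO cells it read 362 to 376 units in controls and 410 to 502 units after 72 h. Its KO values lay below its WT values in controls and after 72 h, and overlapped them after 8 h. On the brighter probe set the 72 h differences from control were 0.09 ± 0.16 in KO (95% interval -0.26 to 0.44) and 0.10 ± 0.16 in WT cells (95% interval -0.25 to 0.45).

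The probe set shared by Anxa11, Gm2260 and Gm2274 read 554, 338 and 563 units in KO controls, 863, 423 and 628 units after 8 h of RA, and 1036 and 591 units after 72 h. In WT cells it read 405, 335 and 381 units in controls, 428, 295 and 405 units after 8 h, and 554 and 359 units after 72 h. Replicate 2 was the lowest array of both genotypes in each condition, and KO lay above WT at the same replicate number in every condition. Which of the 3 genes gave this signal cannot be told apart.

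On the arrays labelled without LIF, whose Socs3 level goes against that label, 1 per genotype and so without a test, Anxa1 read 344 units in KO and 69.2 units in WT, and Anxa3 read 65.1 units in KO and 164 units in WT. Anxa2 read 768 units in KO and 846 units in WT, and Anxa5 read 529 units in KO and 471 units in WT. Both Anxa3 values lay below all Anxa3 values of the same genotype labelled with LIF. Anxa4, Anxa6 and Anxa7 lay at 505, 789 and 3096 units in KO and at 612, 1057 and 2490 units in WT.

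The profiles most like those of the members with the widest range were found as the smallest root-mean-square (RMS) difference of log2 values over 16 arrays, each gene centred on its mean. For Anxa3, whose own RMS around its mean was 1.48, the closest were App, the amyloid precursor protein (RMS difference 0.53), Ccn1, a matrix-associated signalling protein (0.56), and Sh3bgrl (0.57), which lay at or under the floor on 6 of 16 arrays. App read 182 to 211 units in KO cells after 72 h, against 790 to 980 units in WT, and Ccn1 184 to 214 units in KO, against 954 to 1058 units in WT. For Anxa1 (own RMS 1.52) the closest were the phosphatase Ptpn13 (0.83), the glypican Gpc3 (0.87) and the keratin Krt18 (0.93), so the match is looser. Krt18 read 923 to 977 units in KO cells after 72 h, against 5364 to 6210 units in WT.

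For Anxa5 (own RMS 0.74) the closest profiles were Fam25c (0.29), the thioredoxin-like protein Nxn (0.30) and the fatty aldehyde dehydrogenase Aldh3a2 (0.32). All 3 rose at 72 h against control in both genotypes, Nxn by 1.62 ± 0.15 in KO (limma adjusted p = 2.27e-06) and by 1.44 ± 0.15 in WT cells (adjusted p = 6.1e-06). For Anxa2 (own RMS 0.63) they were Mirg (0.31), Evx2 (0.32) and Tcaf2 (0.32), of which 0 of 3 were called at 72 h in either genotype. These 3 were dim: Mirg lay at or under the floor of 50 units on 9 of 16 arrays, Evx2 on 4 and Tcaf2 on 9, so part of the likeness is that of floored values. Among the members themselves the smallest difference was between Anxa4 and Anxa6 (0.28) and the largest between Anxa3 and Anxa7 (1.58). These distances are descriptions over arrays that share the same samples and carry no test.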

How the data were processed

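The authors deposited signal intensity for 45101 probe sets on 18 arrays, made with MAS5 per the submitters' processing notes, with no settings stated. Through GEO's platform annotation 34958 probe sets were given 1 symbol, 932 several and 9211 none. Each array was rescaled so that its mean without the highest and lowest 2% of values was 500, floored at 50 units and log2 transformed. The probe set with the highest mean log2 stood for a gene, and genes with at least 2 arrays at 100 units were tested (11388). The 16 replicated arrays were fitted with limma 3.58.1 in R 4.3.3 (lmFit, eBayes with intensity trend), with two-sided tests, Benjamini-Hochberg adjustment over all genes tested in a comparison, and a threshold of 0.05. The fit was tested on simulated data. Precision is limited by the number of arrays, since arrays carry no count depth.

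Replicate numbers come from the titles where given and otherwise from accession order. Over 22 pairs of same-numbered arrays, deviations from the group means correlated between 0.106 and 0.504, so the numbers were taken to pair the arrays and the fit with them as a block is given where it changes a call. Alternatives covered the floor, the filter, quantile normalization, the choice of probe set, the arrays in the fit, the intensity trend, the block, the control arrays of replicate 1 and each array left out. The genes named are all members, up to 4 called genes of each list with the smallest adjusted p or otherwise 2 with the largest difference, the 3 closest profiles of members whose group means span at least 1 on the log2 scale, Socs3 and Cyp26a1. Pou5f1, Fpr2, Plg, the fibroblast markers other than Acta2 and Thy1, and some values given for S100a6, S100a13 and Chmp4b, were chosen after values were seen. The members and lists were chosen with earlier results of these data known. No genome was used: promoter windows are RefSeq's, assembly GRCm38.p6.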

Additional observations from a re-analysis of the deposited data

Results flagged for a closer look

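The response of Anxa3 to 72 h of RA differed between genotypes by a test of the difference itself: KO response minus WT response was -2.20 on the log2 scale (limma adjusted p = 0.012), with Anxa3 at 214 and 231 units in KO and at 2411 and 3214 units in WT cells after 72 h. The KO arrays lay below the WT arrays already in controls (86.2 to 116 units in KO, against 247 to 323 units in WT). The call was lost without both control arrays of replicate 1 (adjusted p = 0.0778), without KO 72 h replicate 1 (0.0575) or replicate 2 (0.0631), and without WT 72 h replicate 2 (0.257).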

How the results depend on the processing

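Over the 77 differences of 7 members in 11 comparisons, alternatives gave 1308 values that kept their side of the threshold, 19 that newly passed it and 10 that no longer passed it, and 0 called differences changed sign. Of the 1308, 84 had the opposite sign to an uncalled difference. With the replicate block, members called between KO and WT were 2 in control cells (9.39% of all genes), 2 at 8 h (9.78%) and 3 at 72 h (8.82%). For the difference in the 72 h response the count was 2 (0.492%), and the block changed no other count by over 1.5 times. With a floor of 100 units the counts were 2 for KO minus WT after 72 h (6.03% of all genes) and 2 for the difference in the 72 h response (1.65%), and in a fit of only the arrays compared KO minus WT after 72 h gave 3. Without both control arrays of replicate 1 the difference in the 72 h response gave 0 (0.0971% of all genes). With no filter on dim genes KO 72 h minus KO 8 h gave 1 (10.2%). No share of all genes is given here for the fit of only the arrays compared or for fits with 1 array left out. Leaving out 1 array at a time gave 1 to 2 members for KO 72 h minus KO 8 h, 1 to 2 for KO minus WT in controls, and 0 to 2 for the difference in the 72 h response, where the 2 came without WT control replicate 2 (Anxa1 -4.87, adjusted p = 0.0261). Without that array Anxa1 was also higher in KO controls (2.61, adjusted p = 0.0161) and Anxa2 rose in WT cells at 72 h (1.43, adjusted p = 0.0176), a difference of 0.60 (adjusted p = 0.369) without both control arrays of replicate 1. The causes were not tested. A lone 72 h array was assumed to vary like the other groups.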
